A study of Mus musculus with 2 samples.

Results

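The genes described here are type I interferon stimulated genes, a set of 38 mouse genes taken by symbol and without GBP, IRG, MHC or STAT genes. Of these, 36 had a row among the 32286 features of the deposited tables, and Mx1 and Mx2 were not analysed here. The genes were read in single cells of lungs from BALB/c mice that carried 4T1 tumours, which are grown from an established mouse mammary carcinoma line and spread to the lung. The cells had been placed in the mammary fat pad, and lungs were taken on day 14. There were 2 groups, mice given an IgG antibody and mice given an S100a4-11 antibody (written S100A4-11 here), with 1 library each, so every mouse behind these values carried a tumour and received an antibody. The comparison asks what the antibody against S100A4 does to the lung before metastases form. Neither the number of animals behind a library nor the dose and schedule of the antibodies is given in the sources used here. With 1 library per group no difference has a replicate check, and no test was made.

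Type I interferons, the interferon alpha proteins and interferon beta, bind the receptor formed by Ifnar1 and Ifnar2. Through Jak1 and Tyk2 this activates a transcription factor complex that contains Irf9 and binds the interferon stimulated response element in the promoters of its target genes. Many of the targets act against viruses at successive steps, from entry at the membrane (Ifitm3) through sensing of foreign RNA (Ddx58, Ifih1) and block of translation (the Ifit proteins, Eif2ak2) to release of particles (Bst2). Interferon gamma and other signals also raise some of them, so their RNA does not identify the ligand. In the lung, epithelium, endothelium and myeloid cells all carry the receptor.

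The element's core was looked for in promoter sequence, since it is the feature that the genes' shared control rests on and the choice by symbol did not use. The motif searched was GAAANNGAAA, on both strands, within the 250 bases before the start of each gene in RefSeq's table for GRCm38.p6. Of the 36 genes, 28 had an entry, and 10 of these (35.7%) held the motif, against 936 of 27025 genes (3.46%) in the whole table. A match is a description of the letters and was not tied to binding here. Sequences are shown for 8 genes whose values carry the results below, each as 50 bases around the match nearest to the start, read 5′ to 3′ on the gene's strand, with capitals marking every match to the motif or its reverse complement in the window. Isg15 (chr4:156200855-156200904, minus strand), Oas3 (chr5:120777705-120777754, minus) and Bst2 (chr8:71537567-71537616, minus) held it on the gene's own strand. It was on the opposite strand in Ifit1 (chr19:34640784-34640833, plus), Ifit3 (chr19:34583387-34583436, plus), Ifit3b (chr19:34607783-34607832, plus), Rsad2 (chr12:26456543-26456592, minus) and Slfn8 (chr11:83020829-83020878, minus).
Isg15: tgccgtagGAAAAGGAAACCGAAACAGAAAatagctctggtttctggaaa
Oas3: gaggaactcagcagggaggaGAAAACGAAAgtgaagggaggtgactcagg
Bst2: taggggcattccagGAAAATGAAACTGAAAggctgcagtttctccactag
Ifit1: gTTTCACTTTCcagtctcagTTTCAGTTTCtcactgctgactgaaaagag
Ifit3: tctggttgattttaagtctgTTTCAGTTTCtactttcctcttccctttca
Ifit3b: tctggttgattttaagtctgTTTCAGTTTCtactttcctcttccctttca
Rsad2: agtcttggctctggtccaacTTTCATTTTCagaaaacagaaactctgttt
Slfn8: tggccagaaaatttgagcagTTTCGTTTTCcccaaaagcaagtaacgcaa
The Isg15 window holds 3 matches, which overlap, the Bst2 window 2 that overlap and the Ifit1 window 2 that stand apart. The windows of Ifit3 and Ifit3b are identical in all 50 bases.

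Several of the genes lie in clusters of the genome. Ifit1, Ifit2, Ifit3 and Ifit3b lie side by side on chromosome 19, from 34550694 to 34650009 of GRCm38 (GENCODE M21, matched by gene ID as for all 36). Rsad2 and Cmpk2 are neighbours on chromosome 12 (26442746 to 26479837), transcribed from opposite strands. Slfn1, Slfn5 and Slfn8 lie on chromosome 11, Parp14, Dtx3l and Parp9 on chromosome 16, and Oas2, Oas3, Oasl1 and Oasl2 on chromosome 5. Of 90-base stretches of their transcripts, 35.1% of those of Ifit3 also occur in Ifit3b and 30.5% of those of Ifit3b in Ifit3. The split of UMIs between this pair is therefore uncertain. The share was 11.5% for Ifi204, 10.6% for Herc6 and 9.75% for Rtp4.

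After filtering and removal of called doublets, 13658 cells of the IgG library and 11750 of the S100A4-11 library remained, with median depths of 4028 and 3661 UMIs (unique molecular identifiers, each counting 1 captured RNA molecule). The libraries shared 247 of these cell barcodes. Clustering without the 36 genes gave 31 clusters, and fixed markers named 15 cell classes, of which 12 held at least 100 cells in each library and are compared. Names carry "-like" because they rest on transcripts alone; type 2 alveolar epithelial-like and alveolar macrophage-like cells were present, which are cells of the lung named in the labels, although the protocol text speaks of tumour tissue. Another 5 clusters stayed unnamed. Levels are UMIs per 1000000 UMIs of the class (CPM) over all its cells. A UMI is counted at the 5' end of a transcript and not per base, so levels are not divided by gene length. Intervals in parentheses are 95% intervals that cover counting error only. They are exact, except those of ratios of shares of cells, which are wider.

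The 36 genes together were high in 4 classes and low in the rest. In the IgG library their summed level was 6135 CPM (6053 to 6218) in classical monocyte-like, 5672 CPM (5632 to 5711) in neutrophil-like, 5472 CPM (5433 to 5510) in endothelial-like and 4529 CPM (4474 to 4585) in nonclassical monocyte-like cells. Next came fibroblast-like cells at 2116 CPM and pericyte or smooth muscle-like cells at 2007 CPM, whose intervals (2079 to 2153 and 1942 to 2073) do not overlap. Type 2 alveolar epithelial-like cells had 1213 CPM and the mixed T and innate lymphoid-like cells 1043 CPM. The lowest levels were 926 CPM in natural killer-like, 864 CPM in T cell-like, 799 CPM in B cell-like and 599.55 CPM in alveolar macrophage-like cells, 10.2-fold below the highest. The order rests in part on 2 membrane proteins, Ifitm3 and Bst2. Without them neutrophil-like cells came first with 3879 CPM, ahead of classical monocyte-like (2064 CPM), endothelial-like (1801 CPM) and nonclassical monocyte-like cells (1569 CPM), and alveolar macrophage-like cells stayed last at 396 CPM.

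**Figure D1:**
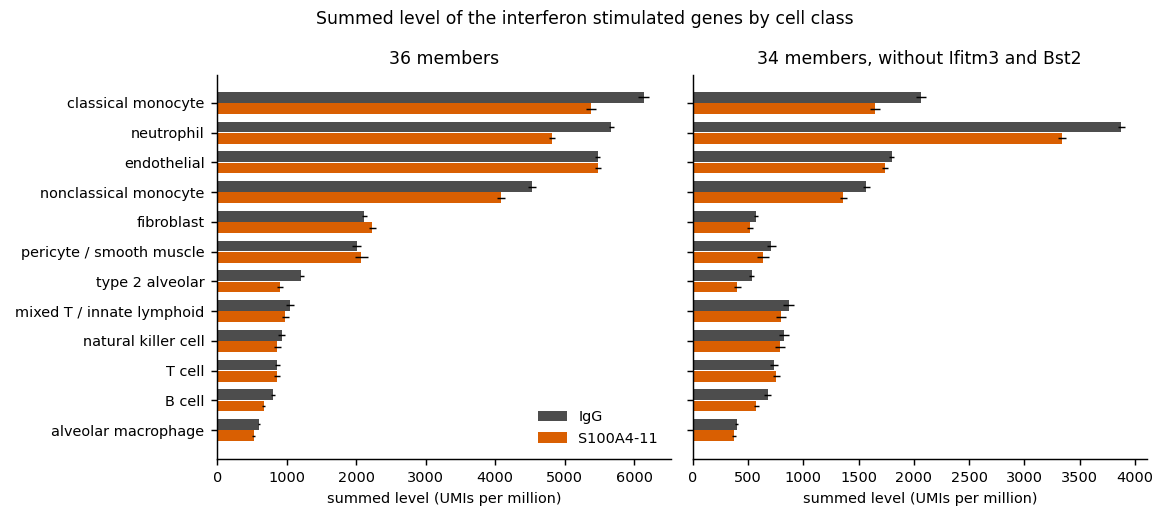
Summed level of the 36 interferon stimulated genes (CPM, exact 95% Poisson intervals) in each of the 12 cell classes, for the IgG and the S100A4-11 library. Classical monocyte-like, neutrophil-like, endothelial-like and nonclassical monocyte-like cells are the 4 highest in both libraries, and alveolar macrophage-like cells are lowest.

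Of the 12 classes 5 led the genes between them. Of the 36, 15 were highest in endothelial-like, 11 in neutrophil-like, 7 in classical monocyte-like, 2 in fibroblast-like and 1 in natural killer-like cells of the IgG library. For 34 of the 36 the class was the same in the S100A4-11 library, Ifit3b and Irf7 being the exceptions, and 16 genes were at least 5-fold above their median class.

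In the ISG15 system, Isg15, a ubiquitin-like protein joined to target proteins, marked neutrophil-like cells most, with 1582 CPM in the IgG library against 176 CPM in classical monocyte-like cells, the next class. Its removing enzyme Usp18, which also restrains receptor signalling, was highest in endothelial-like cells at only 16.9 CPM. So was the E3 ligase Herc6, at 62.8 CPM. The ligase and the protease thus peaked in another class than Isg15 itself.

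The IFIT genes, whose proteins hold back translation of viral RNA, were scarce everywhere and split by gene. Ifit1 was highest in neutrophil-like cells (50.6 CPM) and second in endothelial-like cells (32.5 CPM). Ifit2 and Ifit3 were instead highest in fibroblast-like cells, at 28.2 and 31.1 CPM. Ifit3b had 17.3 CPM in endothelial-like and 16.4 CPM in neutrophil-like cells.

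Among the OAS genes, which make or resemble enzymes that start RNA decay on double-stranded RNA, Oas2, Oas3 and Oasl1 were highest in neutrophil-like cells and Oasl2 in endothelial-like cells. Oas3 stood at 113 CPM in neutrophil-like cells and at 0.562 CPM in endothelial-like cells. Oasl2 stood at 72.1 CPM in endothelial-like and 42.4 CPM in neutrophil-like cells, the opposite order. Rsad2, the antiviral enzyme viperin, was likewise a gene of neutrophil-like cells, with 90.2 CPM against 27.7 CPM in nonclassical monocyte-like cells, the next class. Its neighbour Cmpk2, a nucleotide kinase, had close values in its 3 highest classes, with 18.2 CPM in endothelial-like, 16.3 CPM in classical monocyte-like and 15.98 CPM in neutrophil-like cells, and 0.425 CPM in T cell-like cells, the lowest class.

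Sensors of nucleic acids were highest outside neutrophil-like cells. The RNA sensors Ifih1 (MDA5) and Ddx58 (RIG-I) and the RNA-activated kinase Eif2ak2 (PKR) were highest in endothelial-like cells, at 66.0, 65.0 and 42.3 CPM. Dhx58 (LGP2), a regulator of both, Zbp1, a sensor of Z-form nucleic acid that can start cell death, and Ifi204, a DNA sensor, were highest in classical monocyte-like cells, at 39.0, 113 and 52.7 CPM. Ifi204 was near its floor in neutrophil-like cells (0.285 CPM). Irf7, the factor that amplifies interferon production, reached 262 CPM in natural killer-like cells, 253 CPM in classical monocyte-like, 247 CPM in nonclassical monocyte-like and 246 CPM in neutrophil-like cells, an order that these close values do not settle.

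Ifitm3 alone held 50.3% and 50.5% of the set's UMIs in all cells of the IgG and S100A4-11 library. It blocks fusion of entering viruses and had 3920.0 CPM in classical monocyte-like and 3249 CPM in endothelial-like cells and only 36.1 CPM in T cell-like cells. Bst2 (tetherin), which holds budding particles at the surface, was highest in endothelial-like cells at 421 CPM. The Schlafen genes, regulators of growth and tRNA, divided by class. Slfn1 was highest in neutrophil-like (312 CPM), Slfn5 in endothelial-like (355 CPM) and Slfn8 in classical monocyte-like cells (55.9 CPM).

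The ADP-ribosyltransferases Parp9 (49.0 CPM) and Parp14 (123 CPM) were highest in endothelial-like cells, and Dtx3l, the ubiquitin ligase partner of Parp9, in classical monocyte-like cells (41.3 CPM). Of the remaining genes, 4 were led by neutrophil-like cells. These were the exonuclease Isg20 (244 CPM, against 48.2 CPM in the next class), Rtp4 (269 CPM), Trim30a (144 CPM) and Samd9l (119 CPM). Endothelial-like cells led Ifi35 (138 CPM), Xaf1 (119 CPM) and Phf11d (59.9 CPM), and classical monocyte-like cells led Ifi44 (76.8 CPM).

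**Figure D2:**
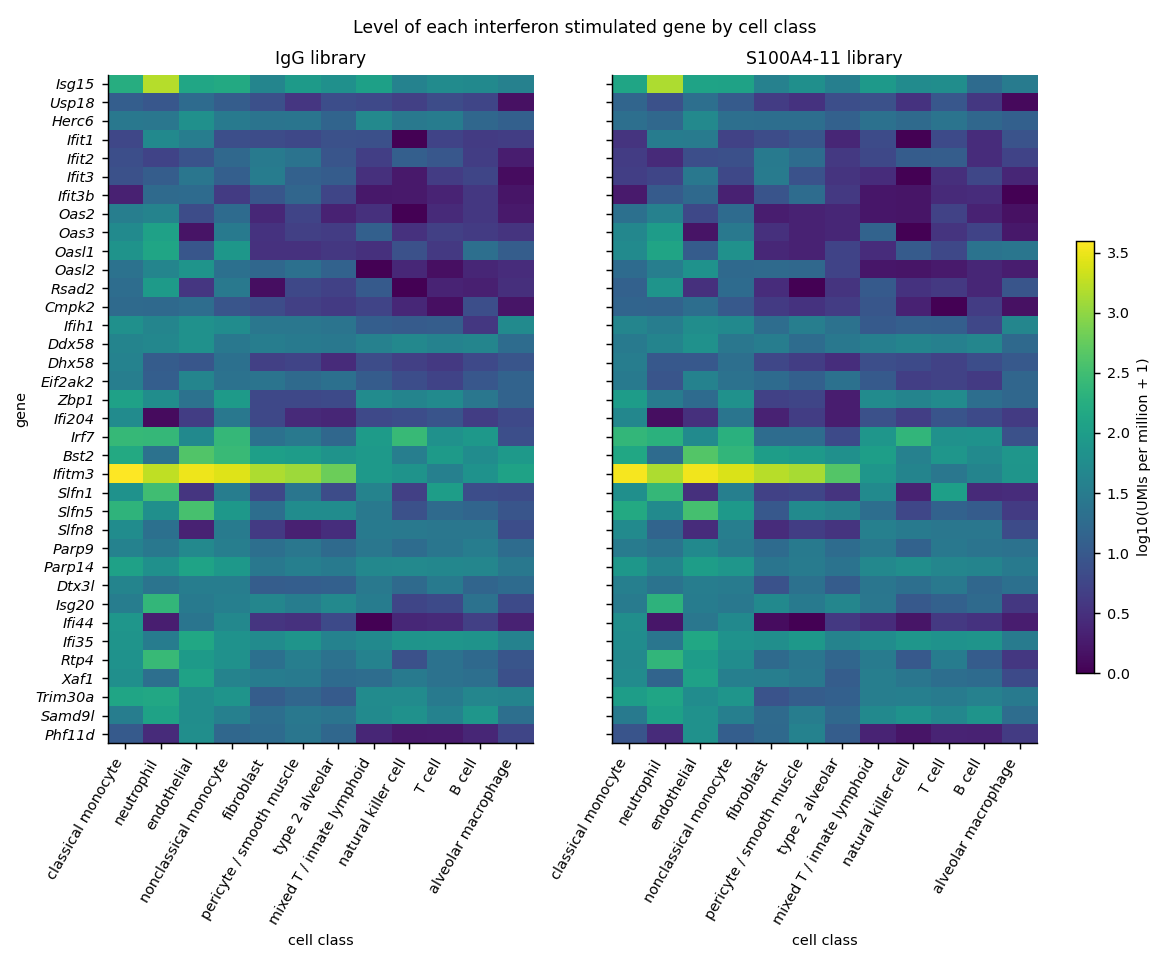
Level of each of the 36 genes (rows, ordered by role) in each of the 12 cell classes (columns), for each library, in CPM on a log colour scale. Isg15, Oas3, Rsad2, Slfn1, Isg20 and Rtp4 are highest in neutrophil-like cells of each library, and Bst2, Slfn5, Ifi35 and Phf11d in endothelial-like cells.

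By summed level, the genes were lower in the S100A4-11 library in neutrophil-like, monocyte-like, type 2 alveolar epithelial-like, B cell-like and alveolar macrophage-like cells. They were level by that sum in endothelial-like cells, but slightly lower there without Ifitm3 and Bst2 (ratio 0.966, 0.948 to 0.984). A gene is called lower or higher where it differs by at least 1.5-fold with an interval that excludes 1, among genes with at least 20 UMIs over both libraries of the class. Over the 12 classes, 37 pairs of gene and class were called lower and 6 higher. The shares called among all measured genes are given beside each class, because a count of calls near that share says nothing about these genes. In all cells together the summed level was 3781 CPM in the IgG library and 3502 CPM in the S100A4-11 library, a ratio of 0.926 (0.921 to 0.931). In that sum 28 of 36 genes were lower, with a median log2 ratio of -0.11 against -0.05 over all genes. The sum mixes classes in different proportions, such as B cell-like cells, 872 of 13658 and 1345 of 11750 cells. The part of these proportions in the ratio was not tested.

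**Figure D3:**
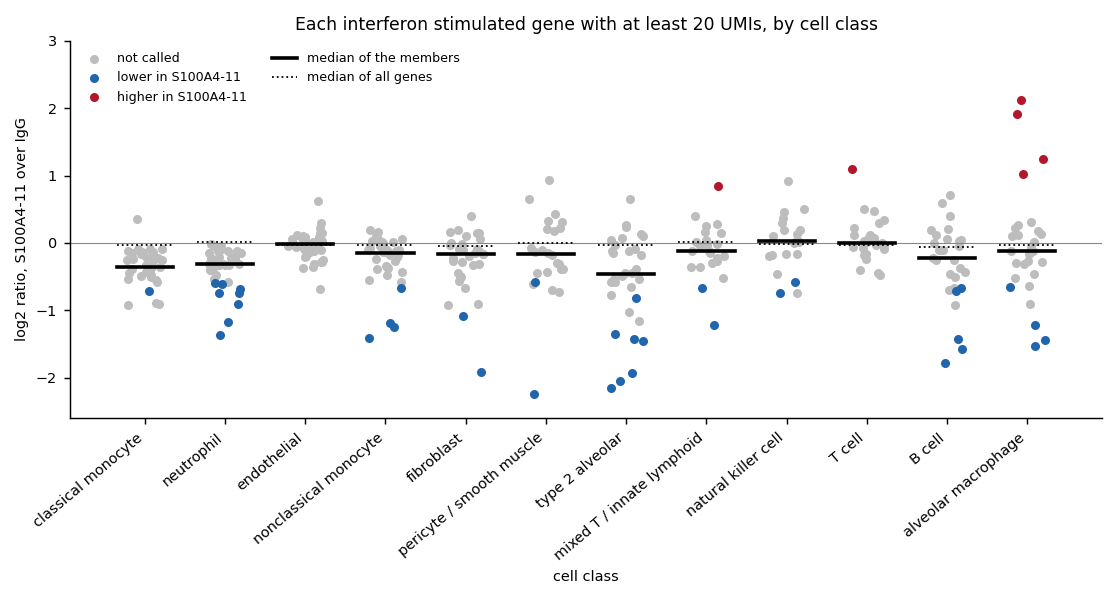
Log2 ratio of S100A4-11 over IgG for each interferon stimulated gene with at least 20 UMIs, by cell class, with the median over these genes and over all genes of the class. All 35 points of neutrophil-like cells and 34 of 35 of classical monocyte-like cells lie below 0, while endothelial-like points surround it.

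In neutrophil-like cells (2846 and 2430 cells) every measured gene of the set was lower in the S100A4-11 library. The summed level was 5672 CPM and 4815 CPM, a ratio of 0.849 (0.840 to 0.858). All 35 genes with enough UMIs lay below 0, with a median log2 ratio of -0.32, against 0.01 over all 11246 genes measured there. Of the 35 genes 8 were called lower (3.70% of all genes were) and none higher (1.92%). The 8 were the 4 IFIT genes, Zbp1, Parp14, Herc6 and Slfn8.

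Zbp1 stood at 56.6 CPM in IgG and 30.1 CPM in S100A4-11 neutrophil-like cells, a ratio of 0.532 (0.467 to 0.606), and its UMIs came from many cells, since the 5 cells with most held 4.79% and 6.10% of them. Ifit1 had 50.6 and 31.6 CPM (0.625, 0.548 to 0.712). Ifit3 had 10.5 and 4.596 CPM (0.438, 0.311 to 0.608). All 4 IFIT genes were called lower here, and their UMIs sat in few cells. Ifit2 had 61 UMIs in the IgG library and 18 in the other (0.380, 0.211 to 0.652), found in 1.16% and 0.494% of cells, and Ifit3b had 230 and 106 (0.594, 0.467 to 0.751). Parp14, at 63.2 and 41.3 CPM, had a ratio of 0.653 (0.582 to 0.732). Herc6 (25.6 and 15.3 CPM, 0.596) and Slfn8 (20.6 and 13.6 CPM, 0.660) complete the 8.

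The genes that set the neutrophil-like level were lower by less than 1.5-fold, so they carry no call. Isg15 had 1582 CPM and 1448 CPM, a ratio of 0.916 (0.897 to 0.935). For Ifitm3 it was 0.821 (0.805 to 0.838), for Irf7 0.808 (0.765 to 0.853) and for Slfn1 0.808 (0.770 to 0.847). Rtp4 and Isg20 had ratios of 0.860 and 0.856. Rsad2, at 90.2 and 71.1 CPM, had 0.788 (0.720 to 0.863). Each of these intervals lies below 1.

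The neutrophil-like class joined 3 clusters, and the lower level was in the 2 large ones. The cluster led by Il1rn and Ptgs2 (1481 and 1345 cells) had a median log2 ratio of -0.30, with 31 of 33 genes below 0, 6 called lower and 0 higher (2.71% and 2.28% of all genes in this cluster were). The cluster led by Ngp and Stfa2 (1223 and 977 cells) had -0.40, with 33 of 33 below 0, 11 called lower and 0 higher (background 4.87% and 2.1%). The small cluster 25 (142 and 108 cells) had 0.00, with 14 of 29 below 0, 5 called lower and 1 higher (background 7.55% and 5.61%). Clustering each library alone gave a median of -0.03 and 4 genes called lower, and the share of all genes called was not counted there. In that clustering 1272 of the 2430 S100A4-11 neutrophil-like cells lay in an unnamed cluster, while 2815 of 2846 IgG cells kept the name, and the part of this in the smaller differences was not tested. The neutrophil markers themselves summed to 169745 and 160534 CPM, and none of the 10 was called different. Surfactant, secretoglobin and globin genes, RNA that leaks from other cells, summed to 717 and 426 CPM in this class. Of these 9 genes 5 were called lower and 0 higher (background 3.7% and 1.92%), and their part was not tested.

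In classical monocyte-like cells (328 and 388 cells) the shift was as broad but rested on few calls. The summed level was 6135 and 5379 CPM, a ratio of 0.877 (0.860 to 0.894), and 34 of 35 genes lay below 0, with a median log2 ratio of -0.35 against -0.03 over all genes. Only Oas2 was called lower, with 33.8 and 20.6 CPM (0.609, 0.449 to 0.821), and no gene was called higher (background 2.07% and 2.10%). Slfn5 had 220 and 155 CPM (0.702, 0.629 to 0.785) and Isg15 had 176 and 130 CPM (0.741, 0.656 to 0.837). Ifih1 and Ddx58, the RNA sensors, had ratios of 0.669 (0.541 to 0.825) and 0.687 (0.528 to 0.892). With each library clustered alone the median was -0.06. Neutrophil markers in these cells summed to 2281 and 1683 CPM, and their part in the result was not tested.

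Nonclassical monocyte-like cells (769 and 822 cells), the patrolling monocytes of the vessel wall, had the set lower as well. Their summed level was 4529 and 4083 CPM, a ratio of 0.902 (0.885 to 0.918), with 27 of 36 genes below 0 and a median log2 ratio of -0.15 against -0.03 over all genes. Called lower were 4 genes and higher 0 (background 4.37% and 1.75%). Ifit2 had 15.4 and 6.47 CPM (0.419, 0.273 to 0.630), Ifit3 11.4 and 4.95 CPM (0.436, 0.265 to 0.697) and Ifit3b 18 and 6 UMIs (0.358). Rsad2 had 27.7 and 17.3 CPM (0.626, 0.478 to 0.816), but its log2 ratio was 0.53 at clustering resolution 2. These 4 are scarce, and the 5 cells with most UMIs held 49.4% and 47.1% of those of Ifit2. More abundant genes were lower without a call, Irf7 with 247 and 190 CPM (0.768, 0.707 to 0.834), Isg15 with 152 and 118 CPM (0.777, 0.700 to 0.863) and Zbp1 with 89.8 and 66.2 CPM (0.738, 0.642 to 0.847). The class joined 2 clusters, and the one that held most cells differed, cluster 10 in the IgG library (52.1%) and cluster 9 in the other (52.4%). Cluster 10 had a median of -0.21 and cluster 9 of -0.02. With each library clustered alone the median of the class was -0.62, so its order against classical monocyte-like cells turned. Endothelial markers in this class summed to 605 and 318 CPM, and their part was not tested.

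Endothelial-like cells (3108 and 2548 cells), the largest class, had the set at the same summed level in both libraries. It was 5472 and 5475 CPM, a ratio of 1.001 (0.990 to 1.01), with 19 of 35 genes below 0 and a median log2 ratio of -0.01 against -0.03. Ifitm3 held 59.4% and 60.5% of this sum. Without Ifitm3 and Bst2 the level was 1801 and 1739 CPM, a ratio of 0.966 (0.948 to 0.984). No gene was called lower or higher (background 5.19% and 1.28%). Bst2 had 421 and 425 CPM (1.01, 0.972 to 1.05), Ifitm3 3249 and 3311 CPM (1.02, 1.01 to 1.03) and Slfn5 355 and 344 CPM (0.969, 0.929 to 1.01). A few genes were nonetheless lower with intervals below 1. Herc6 had 62.8 and 48.4 CPM (0.771, 0.692 to 0.858), Zbp1 21.8 and 16.9 CPM (0.776, 0.645 to 0.932) and Parp14 123 and 101 CPM (0.822, 0.762 to 0.886). These were also among the genes called lower in neutrophil-like cells. The class joined 4 clusters with medians from -0.08 to 0.06, in different proportions in the libraries. Cluster 0, led by Plvap and Aplnr, made up 57.4% of the IgG and 65.1% of the S100A4-11 cells, and its summed level was 6625 and 6202 CPM, with 26 of 35 genes below 0, 2 called lower and 0 higher (background 3.3% and 1%). Cluster 6, of lower level (3369 and 3419 CPM), made up 21.2% and 14.6%, with 13 of 32 genes below 0, 0 called lower and 4 higher (background 3.93% and 3.39%). Cluster 8 had 1 called lower and 2 higher (background 8.88% and 2.69%), and cluster 22 had 0 lower and 2 higher (background 3.38% and 2.48%). With each cluster given the same share in both libraries the median of the class was -0.05. Clusters 12, 15, 16 and 27, which stayed unnamed, held 7, 10, 10 and 8 endothelial markers and are not in the class.

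**Figure D4:**
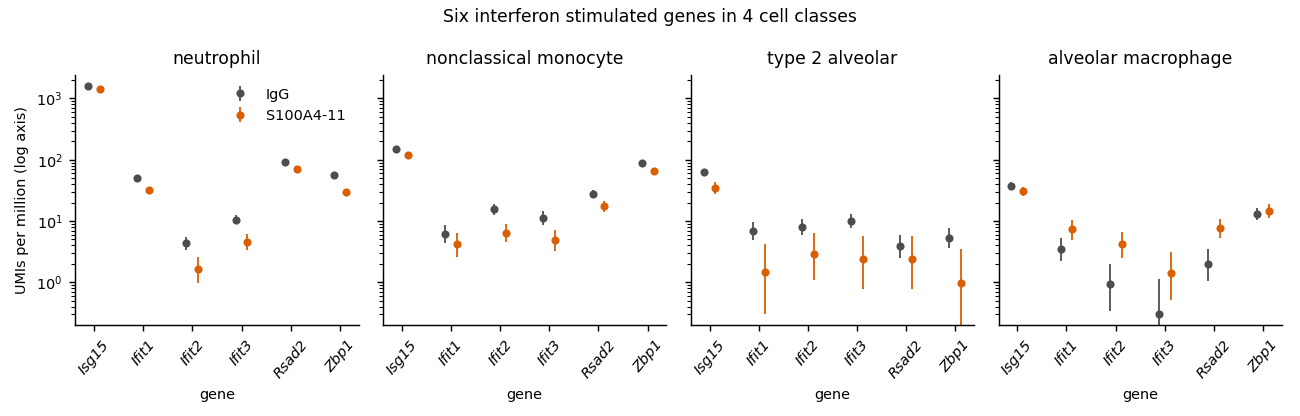
Levels of Isg15, Ifit1, Ifit2, Ifit3, Rsad2 and Zbp1 (CPM, exact 95% Poisson intervals) in neutrophil-like, nonclassical monocyte-like, type 2 alveolar epithelial-like and alveolar macrophage-like cells of both libraries. Ifit2 and Rsad2 are lower in the S100A4-11 library in nonclassical monocyte-like cells and higher in alveolar macrophage-like cells. There, for each gene, 1 cell holds most of its UMIs in the S100A4-11 library.

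Type 2 alveolar epithelial-like cells, which make surfactant, had the lowest ratio of the 12 classes, on few cells (420 and 197). The summed level was 1213 and 903 CPM, a ratio of 0.745 (0.707 to 0.784), and 25 of 32 genes lay below 0, with a median log2 ratio of -0.47 against -0.03. Of the 32 genes 7 were called lower and 0 higher (background 8.29% and 3.44%, the highest of any class). Isg15 had 62.3 and 35.04 CPM (0.563, 0.430 to 0.727), Irf7 14.95 and 5.35 CPM (0.358, 0.172 to 0.674) and Oasl2 71 and 9 UMIs (0.347, 0.152 to 0.696). The IFIT genes and Zbp1 rest on 2 to 6 UMIs in the S100A4-11 library. Ifit3 had 57 and 5 UMIs (0.240), Ifit1 39 and 3 (0.210), Ifit2 45 and 6 (0.365) and Zbp1 30 and 2 (0.182, 0.0211 to 0.719). With doublets kept the median was -0.01, and with every barcode kept -0.08. Neutrophil markers in this class summed to 2143 and 1092 CPM and endothelial markers to 2117 and 1508 CPM, none of them at 0 in either library, and their part was not tested.

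Alveolar macrophage-like cells (744 and 496 cells) were the only class with several genes called higher. For each of these, 1 cell held most of its UMIs in the S100A4-11 library, and whether it was the same cell was not tested. The summed level was 599.55 and 526 CPM, a ratio of 0.877 (0.832 to 0.924). Of 28 genes 4 were called higher (background 1.21%) and 4 lower (3.63%), with a median log2 ratio of -0.12 against -0.03. Rsad2 had 13 and 33 UMIs (3.86, 1.98 to 7.997), and all 33 lay in 1 cell of the S100A4-11 library. The cell with most Oasl1 held 84.8% of its 105 UMIs there (67 in the IgG library, ratio 2.38, 1.74 to 3.29), and the corresponding shares were 80.6% for Ifit1 (23 and 31 UMIs, 2.05) and 83.3% for Ifit2 (6 and 18 UMIs, 4.57). Without the 5 cells of each library richest in these genes, no gene was called higher, and the log2 ratio of Oasl1 was -1.18. Called lower were Ifitm3, with 117 and 74.6 CPM (0.636, 0.556 to 0.726), Slfn5 (51 and 14 UMIs, 0.418), Rtp4 (51 and 12, 0.358) and Slfn1 (37 and 8, 0.329). Neutrophil markers summed to 1356 and 486 CPM in these cells, with 9 of 10 called lower, and their part was not tested.

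B cell-like cells (872 and 1345 cells) had a summed level of 799 and 666 CPM, a ratio of 0.834 (0.788 to 0.881), with 20 of 29 genes below 0 and a median of -0.22 against -0.07. They had 5 genes called lower and 0 higher (background 4.95% and 1.28%). Isg15 differed most in CPM, with 50.7 and 16.9 (0.334, 0.247 to 0.446), and 5 cells held 52.1% of its 144 UMIs in the IgG library. The others were Slfn1 (17 and 7 UMIs), Eif2ak2 (24 and 13), Ifitm3 (189 and 170) and Rtp4 (45 and 42), with ratios from 0.279 to 0.631. Neutrophil markers in these cells summed to 937 and 331 CPM, a ratio of 0.353 with 10 of 10 called lower, and their part was not tested. With every barcode kept, or with doublets kept, 1 gene was called lower, and the share of all genes called was not counted there.

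Pericyte or smooth muscle-like cells (486 and 282 cells) had 2007 and 2073 CPM, a ratio of 1.03 (0.975 to 1.09), with 16 of 24 genes below 0. Slfn1 (45 and 4 UMIs, 0.189) and Isg15 (91.9 and 61.2 CPM, 0.666, 0.478 to 0.914) were called lower and none higher (background 4.10% and 2.56%). Neutrophil markers there summed to 6203 and 2339 CPM, with 10 of 10 called lower, and their part was not tested. Fibroblast-like cells (1174 and 786 cells) had 2116 and 2230 CPM, a ratio of 1.05 (1.02 to 1.08), while 25 of 32 genes lay below 0, with a median of -0.16 against -0.05. The sum and the median thus point in opposite directions, and Ifitm3, with 1436 and 1613 CPM, makes up most of the sum. Slfn5 (19.04 and 8.83 CPM, 0.464, 0.297 to 0.703) and Ifi204 (30 and 4 UMIs, 0.239) were called lower and none higher (background 5.60% and 1.53%). With each library clustered alone the log2 ratio of Slfn5 turned to 1.13. Endothelial markers in fibroblast-like cells summed to 663 and 431 CPM, with 8 of 10 called lower, and their part was not tested.

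In T cell-like, natural killer-like and mixed lymphoid-like cells the set was low, and the intervals of the 3 summed ratios include 1. T cell-like cells (587 and 593 cells) had 864 and 859 CPM, a ratio of 0.995 (0.935 to 1.06), with 12 of 25 genes below 0 and a median of 0.00. Isg20, with 13 and 29 UMIs (2.19, 1.10 to 4.59), was called higher and no gene lower (background 1.56% and 2.94%). Natural killer-like cells (422 and 567 cells) had 926 and 866 CPM, with 9 of 20 genes below 0. Ifitm3 (90 and 68 UMIs, 0.598) and Trim30a (69 and 58, 0.665) were called lower and none higher (background 3.11% and 1.95%). Neutrophil markers in these cells summed to 769 and 349 CPM, with 7 of 8 measured called lower, and endothelial markers to 373 and 202 CPM, with 6 of 9 called lower, and their part was not tested. Irf7 had 262 and 234 CPM there. The mixed T and innate lymphoid-like cells (319 and 335 cells) had 1043 and 977 CPM, with 15 of 23 genes below 0. Herc6 (48.4 and 20.7 CPM, 0.428, 0.273 to 0.660) and Trim30a (54.3 and 33.9 CPM, 0.625) were called lower and Xaf1 (25 and 53 UMIs, 1.82) higher (background 4.34% and 3.41%). Endothelial markers in them summed to 432 and 292 CPM, and their part was not tested.

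Read by gene across the classes, Isg15, Ifit2, Ifit3, Ifitm3 and Slfn1 were each called lower in 3 classes, where 2.07% to 8.29% of all genes were in any 1 class. For Isg15, Ifitm3 and Slfn1 these were all classes in which neutrophil markers were lower too, with ratios from 0.353 to 0.510. The part of those markers' cells in these calls was not tested. Herc6 was below 0 in 11 of the 12 classes in which it was measured, with a median log2 ratio of -0.41, and Ddx58 also in 11 of 12, with a median of only -0.10. Slfn5 was below 0 in 10 of 11 classes, with a median of -0.45. In contrast Ifi35 was below 0 in 4 of 12 classes (median 0.03), Oasl1 in 3 of 8 (0.24) and Dhx58 in 3 of 7 (0.07). By role, the IFIT genes had the lowest medians, at -0.96 in neutrophil-like, -0.90 in classical monocyte-like and -1.21 in nonclassical monocyte-like cells, against -0.11 in endothelial-like cells. The OAS genes had -0.17, -0.39, -0.19 and -0.08 in the same order. In nonclassical monocyte-like cells 0 of the 3 Schlafen genes were below 0, whereas 3 of 3 were in neutrophil-like cells.

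A strong interferon state was counted as at least 5 of the 36 genes detected in 1 cell. As deposited, 6516 of 13658 IgG cells (47.7%, 46.9 to 48.5) and 4932 of 11750 S100A4-11 cells (42.0%, 41.1 to 42.9) reached it, a ratio of 0.880 (0.848 to 0.913). Detection rises with depth, so every cell was also thinned to 2000 UMIs, leaving out 2393 and 2167 shallower cells. At that equal depth 2942 cells (26.1%, 25.3 to 26.9) and 2154 cells (22.5%, 21.6 to 23.3) carried the state, a ratio of 0.861 (0.814 to 0.910). These shares also depend on the mix of classes, since 771 of 11265 and 1206 of 9583 thinned cells were B cell-like. The part of that mix was not tested. Of the cells in the state 41.6% and 39.9% were neutrophil-like and 31.1% and 33.4% endothelial-like. Among the 12 classes the state was thus common in 4 and rare in the rest. In the 5 unnamed clusters 32.3% to 44.4% of thinned IgG cells carried it too.

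At equal depth 46.9% (44.98 to 48.9) of IgG and 38.9% (36.9 to 41.0) of S100A4-11 neutrophil-like cells carried it, a ratio of 0.830 (0.759 to 0.906), and 71.6% and 63.2% did as deposited. Classical monocyte-like cells had 46.0% and 33.4% (0.726, 0.569 to 0.926), or 94.8% and 87.4% as deposited. With each library clustered alone and cells as deposited, the ratio of the classical monocyte-like shares turned to 1.35. Endothelial-like cells had 39.3% and 39.1% (0.995, 0.901 to 1.10), or 58.6% and 57.3%. Nonclassical monocyte-like cells had 25.3% and 25.6% (1.01, 0.814 to 1.26), or 59.4% and 55.6%. Of these 4 classes, the interval of the ratio lay below 1 in neutrophil-like and classical monocyte-like cells and included 1 in the other two, and the difference between classes was not tested. Within neutrophil-like cells the cluster led by Ngp and Stfa2 had 44.7% and 32.9%, the one led by Il1rn and Ptgs2 49.3% and 43.4%, and cluster 25 34.8% and 44.4%.

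In the other classes under 10% of thinned cells carried the state in either library. Pericyte or smooth muscle-like cells had 9.76% and 5.96%, type 2 alveolar epithelial-like cells 5.30% and 1.09% (21 and 2 cells), fibroblast-like cells 4.56% and 3.63%, and T cell-like cells 3.66% and 5.09%. The mixed T and innate lymphoid-like cells had 3.85% and 5.30%, B cell-like cells 2.59% and 2.07% and natural killer-like cells 2.27% and 0.641%. Alveolar macrophage-like cells were lowest with 1.12% and 0.866% (8 and 4 cells), although they were among the deepest as deposited, with a median of 8360 and 8172 UMIs, and 18.95% and 17.3% of them reached the state before thinning.

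**Figure D5:**
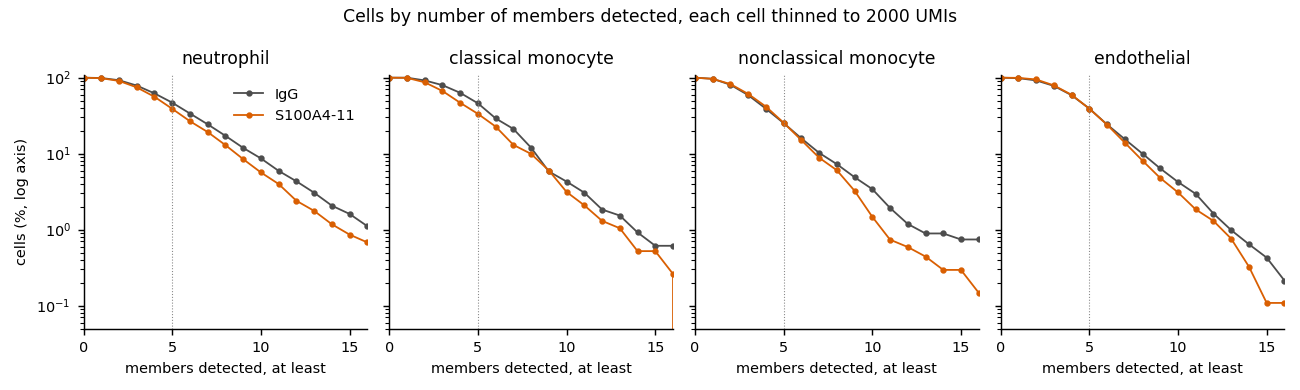
Share of cells (log axis) with at least a given number of the 36 genes detected, after every cell was thinned to 2000 UMIs. Lines show both libraries in neutrophil-like, classical monocyte-like, nonclassical monocyte-like and endothelial-like cells, and a dotted line marks 5 genes. At 5 genes the S100A4-11 share lies below the IgG share in neutrophil-like and classical monocyte-like cells. Endothelial-like cells of both libraries lie near 39% there.

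Ratios in neutrophil-like cells were lower for stricter counts. With at least 8 genes at equal depth the shares were 17.2% and 12.96%, a ratio of 0.755 (0.648 to 0.877). With at least 12 genes, a count added after the data were seen, 113 IgG cells (4.33%) and 53 S100A4-11 cells (2.40%) remained, a ratio of 0.554 (0.392 to 0.775). Endothelial-like cells had 38 and 24 cells with at least 12 genes (1.63% and 1.30%, 0.800, 0.459 to 1.37). The richest thinned cells held 25 and 26 of the 36 genes.

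Apart from Ifitm3, the genes most often found in state cells differed between neutrophil-like, endothelial-like and monocyte-like cells. The share of cells with a UMI is given for IgG cells in the state and outside it, at equal depth, as a description, since these genes define the state. Ifitm3 was found in 93.5% and 73.8% of neutrophil-like and 95.2% and 79.5% of endothelial-like cells. It was found in 100% and 97.7% of classical monocyte-like and 94.7% and 83.3% of nonclassical monocyte-like cells. In neutrophil-like cells Isg15 was found in 90.3% and 56.5%, Rtp4 in 58.6% and 12.2%, Irf7 in 52.9% and 14.9% and Isg20 in 52.1% and 22.9%. In endothelial-like cells it was Bst2 (69.9% and 39.0%), Slfn5 (61.8% and 37.1%) and Ifi35 (39.3% and 14.7%) that were common, and Isg15 was found in 34.6% and 6.987%. Classical monocyte-like cells in the state had Irf7 (60% and 21.6%) and Slfn5 (46.0% and 13.1%). Nonclassical monocyte-like cells had Irf7 (57.6% and 20.9%), Bst2 (50.6% and 16.7%) and Ifi44 (27.1% and 3.40%).

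Genes outside the set differed with the state as well, and the rule did not use these. In IgG neutrophil-like cells Irf9, the DNA-binding part of the interferon complex, had 121 CPM in state cells and 64.6 CPM in the others (1.88-fold, 1.55 to 2.27), and in the S100A4-11 library 113 and 45.3 CPM (2.495-fold, 1.98 to 3.16). The chemokine Cxcl10 was 11.2-fold (5.84 to 24.1) and 15.3-fold (7.39 to 36.7) higher. The lists as a whole differed by less, since the other interferon stimulated genes together were 1.20-fold and 1.18-fold and the receptor and signalling genes 1.14-fold and 1.15-fold higher. Not every gene was higher, as Ube2l6, the enzyme that carries Isg15 to its targets, was 2.32-fold (1.31 to 4.26) in the IgG and 0.392-fold (0.145 to 0.919) in the S100A4-11 library. In endothelial-like cells Irf9 was 2.16-fold (1.70 to 2.75) and 1.65-fold (1.25 to 2.20) higher, while the intervals of Cxcl10 included 1 (1.77-fold, 0.809 to 3.91, and 0.993-fold, 0.326 to 2.81). In classical monocyte-like cells the Irf9 intervals included 1 (1.67-fold, 0.893 to 3.17, and 1.38-fold, 0.796 to 2.37). In nonclassical monocyte-like cells Irf9 was 1.80-fold (1.11 to 2.87) and 1.41-fold (0.880 to 2.21). In the same order Cxcl10 was 0.261-fold and 2.56-fold, and 1.73-fold and 1.98-fold, with only the last interval (1.004 to 3.82) excluding 1. The other interferon stimulated genes together were 1.31-fold and 1.37-fold, and 1.59-fold and 1.41-fold. Median depth was near equal for neutrophil-like cells in and outside the state, with 4325 and 4267 UMIs in the IgG and 3838 and 4170 UMIs in the S100A4-11 library. A list of RNA that leaks from other cells (surfactant, secretoglobin and globin genes) was 1.54-fold in IgG and 0.515-fold in S100A4-11 neutrophil-like state cells, and from 0.407-fold to 0.838-fold in state cells of the endothelial-like and both monocyte-like classes. A list of genes raised by tissue dissociation was 1.10-fold and 1.09-fold in neutrophil-like, 1.06-fold and 1.16-fold in endothelial-like, 1.09-fold and 1.18-fold in classical monocyte-like and 0.969-fold and 1.06-fold in nonclassical monocyte-like state cells. The part of both lists in these differences was not tested.

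Genes of the pathway outside the set were compared in the same way. Of 16 genes of interferon receptors and signalling, none was called in neutrophil-like, endothelial-like or either monocyte-like class. Of all genes 2.07% to 5.19% were called lower there and 1.28% to 2.1% higher, so 0 of 16 says nothing about these genes. Their medians ran from -0.15 (endothelial-like) to -0.02 (nonclassical monocyte-like). In neutrophil-like cells Irf9 had 86.9 and 69.2 CPM, a ratio of 0.796. In endothelial-like cells Irf1, a factor induced by interferon gamma, had 410 and 295 CPM (0.720, 0.690 to 0.751). Of 53 other interferon stimulated genes, 40 of 48 measured in neutrophil-like cells lay below 0, with a median of -0.13. Of the 48, 4 were called lower and 0 higher (background 3.7% and 1.92%), Ifi47 among the lower (34.2 and 16.5 CPM, 0.484). In endothelial-like cells 23 of 51 lay below 0, with a median of 0.02. Of 15 genes of nucleic acid sensing and interferon induction, 12 were measured in neutrophil-like cells and 0 called, near the same background. Ikbke, a kinase upstream of interferon genes, was called lower in classical monocyte-like cells (48.4 and 29.2 CPM, 0.603). It was the only 1 of 13 measured there (background 2.07%).

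The ligands were almost absent. Of 20 interferon genes 13 were listed at 0 in both libraries, and all but Ifng together had 22 and 11 UMIs. Ifnb1, interferon beta, had 17 and 9, of which 18 lay in nonclassical monocyte-like cells. Ifng had 587 and 749 UMIs, 791 of them in natural killer-like cells. In neutrophil-like cells the 20 genes together had 26 and 2 UMIs. Ifng, the only one with enough UMIs there, was called lower (log2 ratio -2.98, background 3.70%). No difference in type I ligand was detectable at this depth. Between the libraries, the 20 genes of the dissociation list had a median of -0.50 in endothelial-like cells, with 20 of 20 below 0, and of 0.05 in neutrophil-like, 0.05 in classical monocyte-like and 0.10 in nonclassical monocyte-like cells. The part of this list in the ratios was not tested.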

How the data were processed

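RNA of dissociated lung was captured with the 10x Genomics 5' kit and sequenced on DNBseq, per the labels' protocols. The deposited matrices hold raw UMI counts per gene and barcode, made with Cell Ranger 7.1.0 on build mm10, per the submitters' processing notes and the file headers. Every deposited barcode had at least 500 UMIs. The IgG matrix had 14411 barcodes and 85458143 UMIs, the S100A4-11 matrix 12506 and 64695542. The genes and lists were chosen with earlier results of these data known.

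Barcodes under 200 genes (67 and 101) or over 15% mitochondrial UMIs (59 and 40) and Scrublet doublets (627, 4.39%, and 615, 4.97%) were removed. Both libraries were clustered together in Scanpy 1.11.5 (Python 3.11.15) from 2000 variable genes without the 36 genes, using leidenalg 0.10.2 and igraph 0.11.9 at resolution 1, on a graph of 15 neighbours in 30 principal components. Clusters were named from markers of 25 classes. A marker counted where 25% or more of the cluster's cells held it and its mean was 2-fold that outside, and 3 or more were needed. Clusters led by another class's genes were left without a name. No correction for free RNA was made.

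UMIs were summed per class and library and divided by the class total. Levels have exact Poisson, shares exact binomial (Clopper-Pearson) and ratios of levels exact conditional binomial 95% intervals (SciPy 1.17.1). Ratios of shares of cells were given the same conditional interval, which treats cells in the state as counts. It is therefore wider than an interval for 2 shares, most so where the shares are large. UMIs without replicates carry counting error only. Log2 ratios used a pseudocount of 0.5 UMI. Named were, in each class, up to 8 genes past 1.5-fold in each direction and the 6 of highest mean level, of which examples are given, and up to 4 genes of each other list. Scripts were tested on simulated data. Alternatives were other cell filters, resolutions, clustering and scalings (median-of-ratios, TMM in edgeR 4.0.16 under R 4.3.3, or a total that leaves out haemoglobin, ribosomal protein and mitochondrial genes), equal weight per cell or cluster, other UMI minimums, pseudocounts, thresholds and thinning depths.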

Additional observations from a re-analysis of the deposited data

Results flagged for a closer look

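Ifit1, Ifit2 and Rsad2 were each called lower in some cell classes and higher in another, so that the libraries differed in opposite directions. The difference between classes was not tested. The ratio of S100A4-11 over IgG for Ifit1 was 2.05 in alveolar macrophage-like cells, against 0.625 in neutrophil-like and 0.210 in type 2 alveolar epithelial-like cells. For Ifit2 it was 4.57 in alveolar macrophage-like cells, against 0.380 in neutrophil-like, 0.419 in nonclassical monocyte-like and 0.365 in type 2 alveolar epithelial-like cells. For Rsad2 it was 3.86 in alveolar macrophage-like cells against 0.626 in nonclassical monocyte-like cells. In alveolar macrophage-like cells of the S100A4-11 library the cell with most UMIs of the gene held 80.6% for Ifit1, 83.3% for Ifit2 and 100% for Rsad2.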

How the results depend on the processing

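No paired analysis was possible because each group had 1 library, and for the same reason no library could be left out. Over all alternatives the median log2 ratio stayed below 0 in neutrophil-like cells (-0.36 to -0.0309), classical monocyte-like (-0.36 to -0.06), nonclassical monocyte-like (-0.62 to -0.04), type 2 alveolar epithelial-like (-0.71 to -0.01), alveolar macrophage-like (-0.32 to -0.03) and B cell-like cells (-0.25 to -0.06), and ran from -0.10 to 0.01 in endothelial-like cells. With each library clustered alone the medians were -0.0309 in neutrophil-like, -0.0586 in classical monocyte-like, -0.62 in nonclassical monocyte-like, -0.0921 in T cell-like, -0.30 in natural killer-like and, reversed, 0.26 in fibroblast-like cells. Of 2430 S100A4-11 neutrophil-like cells 1061 then kept the name, and the cause was not tested in any class. In natural killer-like cells the median was -0.25 with every barcode kept, -0.26 with doublets kept and -0.24 at Leiden resolution 0.5. In type 2 alveolar epithelial-like cells it was -0.0756 with every barcode and -0.0120 with doublets kept. It was -0.0445 in nonclassical monocyte-like cells at resolution 2. Without the 5 cells of each library and class richest in the genes it was -0.32 in alveolar macrophage-like and -0.22 in classical monocyte-like cells. Beside 37 pairs called lower and 6 higher, 19 and 1 were called among genes with at least 100 UMIs, where fewer are measured. Higher were 10 at resolution 2 and 1 without those 5 cells. The shares of all genes called were not counted under the alternatives, so these counts have no background beside them. Of the log2 ratios of called genes over these alternatives, 522 kept the call, 84 lost it and 5 reversed. The reversed ones were Oasl1 in alveolar macrophage-like cells without the 5 cells (-1.18), Rsad2 in nonclassical monocyte-like cells at resolution 2 (0.53) and, with libraries clustered alone, Slfn5 in fibroblast-like (1.13) and Slfn8 and Parp14 in neutrophil-like cells (0.0968 and 0.0893).

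For the share of cells in the state, the ratio in all cells was 0.925 with at least 3 genes, 0.805 with 8, 0.803 thinned to 1000 UMIs, 0.942 thinned to 3000 and 0.591 with 12 genes at 2000 UMIs. In neutrophil-like cells it was 0.964, 0.755 and 0.777 for the first 3 of these, 0.554 with 12 genes and 0.811 clustered alone. In classical monocyte-like cells it was 0.779 with 8 genes, 0.726 thinned to 2000, 0.709 with 12 genes and 1.35 clustered alone. In nonclassical monocyte-like cells it was 0.556 clustered alone, 0.817 thinned to 1000 and 0.497 with 12 genes, and in endothelial-like cells 0.838 thinned to 1000 and 0.800 with 12 genes. It reversed in B cell-like cells thinned to 1000 UMIs (1.41) and in fibroblast-like cells thinned to 3000 (1.06) or clustered alone (1.14). The highest class exceeded the lowest 10.2-fold, and 8.93-fold with every barcode, 8.82-fold with doublets, 10.9-fold at resolution 2, 11.1-fold with the genes among the variable ones, 11.7-fold with cells weighing the same and 10.8-fold without the 5 cells. Classes that an alternative did not name have no value there. Depth limits calls that rest on few UMIs, such as Slfn1 in pericyte or smooth muscle-like cells (45 and 4 UMIs) and Zbp1 in type 2 alveolar epithelial-like cells (30 and 2).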

Other observations

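Cells outside the 12 classes also carried the genes. Interstitial macrophage-like cells had a summed level of 1949 CPM in the IgG and 1833 CPM in the S100A4-11 library. In these cells Isg15 had 60.2 and 92.3 CPM (1.53, 1.10 to 2.15) and Oasl1 51.9 and 101 CPM (1.94, 1.38 to 2.74), with 50% of the S100A4-11 UMIs of Oasl1 in 1 cell. Oasl2 had 25.6 and 11.1 CPM (0.433, 0.182 to 0.933) and Zbp1 23 and 5 UMIs (0.325). Basophil or mast cell-like cells had 964 and 1447 CPM, with Isg15 at 339 and 533 CPM and Ifitm3 at 164 and 459 CPM. Type 1 alveolar epithelial-like cells had 1616 and 1942 CPM.

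The unnamed clusters held markers of another class, led with its genes or were shallow, and had summed levels of 4161 to 5054 CPM in the IgG library. Cluster 16, led by Cyp1a1, Car4 and Ednrb (323 and 253 cells), held 10 endothelial markers. It stayed outside the endothelial-like class because genes of the alveolar macrophage list were among those leading it. It had 4918 and 4395 CPM, a ratio of 0.894 (0.875 to 0.913). Of its thinned cells 37.4% and 37.5% carried at least 5 of the genes. Its Zbp1 had 20.8 and 11.97 CPM (0.574, 0.384 to 0.844). Cluster 15, led by Fam162b and Higd1b (410 and 185 cells), had 4613 and 4406 CPM, with Ifit1 at 32.95 and 21.02 CPM (0.638, 0.463 to 0.865). Its Rsad2 had 45 UMIs and 1, and 1 cell held 71.1% of the 45. Cluster 12, led by Emp2 and Stmn2 (364 and 333 cells), was shallow, with medians of 852.5 and 827 UMIs, and had 5054 and 4826 CPM. Cluster 27, led by Cldn18, held 196 IgG cells and 1 S100A4-11 cell, and 51 of 124 thinned IgG cells (41.1%, 32.4 to 50.3) carried the state.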
